A study of Mus musculus with 45 samples.

Results

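Newly transcribed RNA was compared with unlabelled pre-existing RNA after 60 min of metabolic labelling in the mouse fibroblast line NIH-3T3. The comparison rested on 6 of the 45 Affymetrix arrays, 3 of newly transcribed and 3 of pre-existing RNA, and 3 arrays of total RNA from the same experiment were read beside them. The arrays were chosen by their titles alone. According to the labels, cells at passage 5 to 15 were seeded a day ahead, stood at 80% density at the start, and carried 200 µM 4-thiouridine (4sU) for 60 min. The titles of all 9 arrays carry the word mock, which the labels do not explain. Other arrays gave readouts that share no array with this comparison. They were total RNA before and after 2 h of actinomycin D at 5 µg/ml, newly transcribed and total RNA after 30 min at 500 µM 4sU (9 arrays each), and newly transcribed and total RNA of a further 60 min experiment at 200 µM titled 2F, a term the labels do not explain. All groups are of the same cell line. The labels do not say whether replicates came from separate cultures, so each p-value reflects only how these arrays varied, possibly for technical reasons.

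Cells take up 4-thiouridine and build it into RNA made while it is present, and the thiol group lets labelled RNA be separated from the unlabelled RNA that was there before. A short-lived transcript is replaced quickly, so most of its copies are young and it is rich in the labelled fraction relative to the unlabelled fraction, while a long-lived transcript is mostly old. Messages of early-response transcription factors and signalling inhibitors are known for rapid turnover, and messages of metabolic and structural proteins for slow turnover. Intensities are read relative to the rest of an array. A difference between fractions thus compares the share of a transcript within each fraction and not numbers of molecules per cell.

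Some arrays stood apart. Newly transcribed replicate 1 correlated with its companions at r = 0.858 to 0.859, against 0.982 between the other two, and its Gapdh control was 3.07 log2 units brighter at the 3′ than at the 5′ end, against -0.43 to 0.90 on the other 44 arrays. Pre-existing replicate 2 had an 18S ribosomal RNA control of 11.4 on the log2 scale, against 3.26 to 10.6 on the other 44 arrays, and correlated at 0.978 with its companions, which correlated at 0.996 with each other. Total RNA replicate 2 correlated with its companions at 0.876 and 0.932, against 0.963 between those companions. Its Actb control was 3.08 log2 units brighter at the 3′ than at the 5′ end, against 1.54 or less on the other 44 arrays. Comparisons with total RNA of this experiment kept that array, and its weight in them was not tested. Some calls and values that changed without newly transcribed replicate 1 or pre-existing replicate 2 are given beside them. All 12 fibroblast markers reached an intensity of 32, with summed intensities of 57994 to 74468 in newly transcribed and 87458 to 89430 in pre-existing RNA. Of the markers on the array, 0 of 5 of epithelium, 0 of 4 of endothelium and muscle, and 1 of 6 of leukocytes, Cd14, reached that intensity. The summed leukocyte markers lay at 197 to 233 in newly transcribed and 104 to 123 in pre-existing RNA, and their part in the results was not tested.

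After 60 min, immediate-early factors and signalling feedback genes were mostly called higher in newly transcribed RNA, and genes of oxidative phosphorylation and of lysosome and redox enzymes mostly lower. Differences are log2 intensity in newly transcribed minus pre-existing RNA ± standard error from limma, with 3 arrays per group. A call needed a fold of at least 2 together with a limma p, adjusted by Benjamini-Hochberg, under 0.05. Among the 15444 probe sets whose mean log2 reached 5 (intensity 32), 3422 were called higher (22.2%) and 4631 lower (30.0%) in newly transcribed RNA. The arrays of the groups did not overlap for 10834 probe sets (70.2%). With 1 probe set per gene, the one with the highest mean over all 45 arrays, 1550 of 8346 genes were called higher (18.6%) and 2736 lower (32.8%), and the median over these genes was -0.39. The spread was wide, since 5% of genes lay below -2.97 and 5% above 2.53. At 8-fold or more, 238 genes were called higher and 398 lower. Total RNA lay between the fractions for 83.0% of the probe sets called higher and 84.5% of those called lower. It was nearer to the newly transcribed value, on the log2 scale, in 29.7% of the former and 25.2% of the latter. Quantile normalization moved the median of all genes from -0.39 to -0.25 and left 1742 genes higher and 2507 lower.

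**Figure D1:**
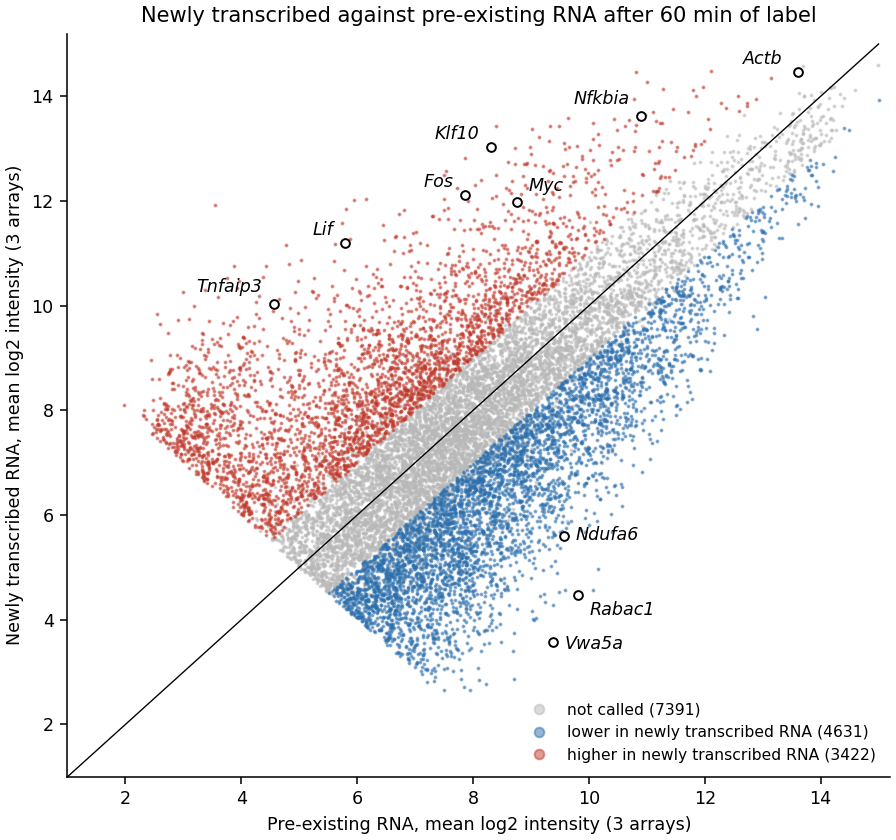
Mean log2 intensity of 15444 probe sets in newly transcribed RNA (vertical axis, 3 arrays) against pre-existing RNA (horizontal axis, 3 arrays), 60 min of label. Red points (3422) were called higher and blue points (4631) lower in newly transcribed RNA, grey points were not called, and the line marks equal values. Open circles name 10 genes, with Tnfaip3 and Lif far above the line, Actb near it and Vwa5a far below. The cut corner at the lower left is the filter on the mean.

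Tnfaip3 encodes A20, a ubiquitin-editing enzyme that shuts off NF-kappaB signalling. Its intensity was 757, 1069.8 and 1422 on the arrays of newly transcribed RNA and 21.0, 28.8 and 21.6 on those of pre-existing RNA, with 129, 113 and 145 in total RNA. The new fraction was brighter by 5.48 ± 0.29 (adjusted p = 2.7e-05). Lif, leukemia inhibitory factor, a cytokine that signals through gp130, was at 2151, 2383 and 2530.0 in newly transcribed and at 51.3, 54.8 and 61.2 in pre-existing RNA. It lay at 278, 289 and 215 in total RNA, and its difference was 5.40 ± 0.19 (adjusted p = 2.1e-05). Both genes were thus bright in every newly transcribed sample and dim, at 61.2 or less, in every pre-existing sample.

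Vwa5a, a protein with a von Willebrand factor A domain, showed the opposite picture. It was at 7.9, 16.4 and 13.4 in newly transcribed and at 749, 537 and 724 in pre-existing RNA, with 352, 336 and 435 in total RNA. Its difference was -5.79 ± 0.32 (adjusted p = 3.0e-05), and the values of new RNA lay below an intensity of 32, where the size of a ratio is loosely held.

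Fos, the AP-1 subunit induced by fresh serum, was at 2586, 4515 and 7411 in newly transcribed and at 205, 180 and 337 in pre-existing RNA (4.25 ± 0.43, adjusted p = 2.2e-04). Its newly transcribed samples differed from each other by more than those of Lif, and all lay above the total RNA values of 680.1, 639.6 and 723. Myc, a growth-promoting transcription factor, was at 4630, 3424 and 4118 against 446, 357 and 502 (3.22 ± 0.23, adjusted p = 5.7e-05). Actb, cytoskeletal beta-actin, was at 23247, 23504 and 20942 in newly transcribed and 13698, 10759 and 13465 in pre-existing RNA. Its difference of 0.84 ± 0.20 (adjusted p = 0.010) did not reach the fold threshold, although the groups did not overlap.

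**Figure D2:**
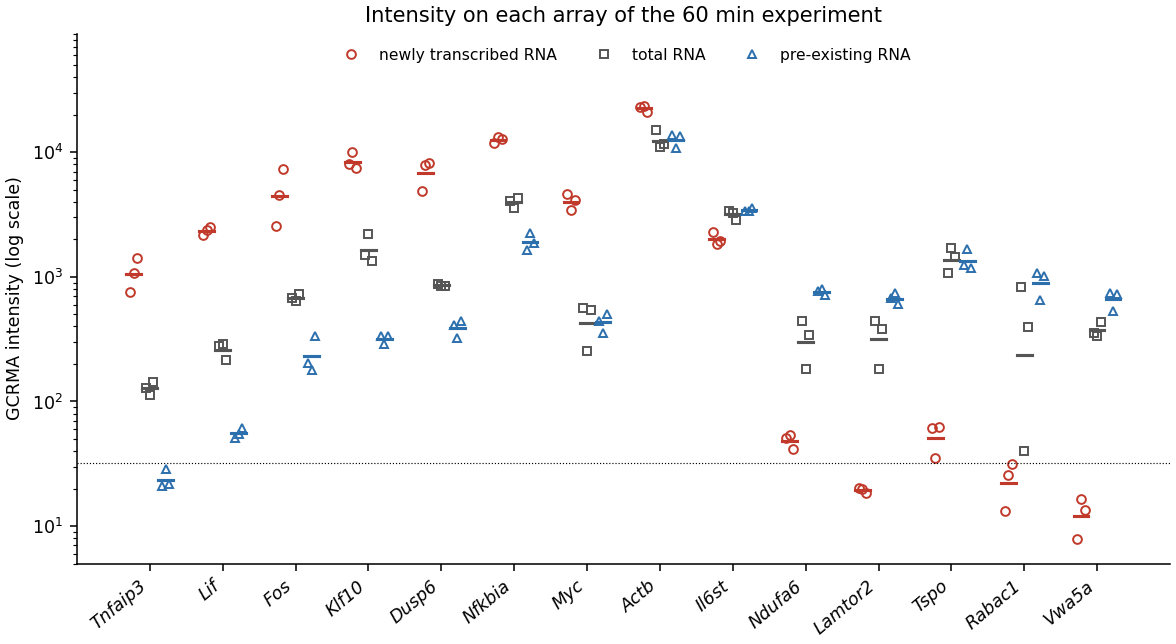
Intensity on a log scale for 14 genes on each of the 9 arrays of the experiment. Red circles are newly transcribed, grey squares total and blue triangles pre-existing RNA, bars mark geometric means of 3 arrays, and the dotted line is an intensity of 32. Tnfaip3 runs from 757 or more in newly transcribed RNA to 28.8 or less in pre-existing RNA, and Vwa5a from 16.4 or less to 537 or more.

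The 15 largest increases among genes whose mean log2 reached 7 lay between 4.43 and 5.59, and all 15 were called higher without newly transcribed replicate 1, without pre-existing replicate 2 and without both. The largest was Rgmb, a co-receptor for bone morphogenetic proteins, at 613, 1022 and 1250 in newly transcribed and 21.5, 16.3 and 20.0 in pre-existing RNA (5.59 ± 0.31, adjusted p = 3.0e-05). Its total RNA was at 364.5, 300.3 and 259.9, so it stood much closer to the new fraction. Several others act in RNA synthesis and processing. Ccnl1, cyclin L1, a regulator of splicing and transcription, was at 12608, 9740 and 11008 against 317, 313 and 391.9 (5.03 ± 0.21). Taf1d, a subunit of the RNA polymerase I promoter factor, was at 2025, 3652 and 3637 against 72.6, 99.8 and 91.1 (5.10 ± 0.30). Fubp1, a single-strand DNA-binding regulator of Myc, reached 5.34 ± 0.21 on its brightest probe set, while another of its probe sets was called lower. The remaining genes were Tnfaip3, Lif, Klf10, Per1, the receptor-associated Itprip, Iffo2, the histone deacetylase partner Mideas, the ADP-ribosyltransferase Tiparp, the F-box protein Fbxo30, the deubiquitinase Usp36 and the corepressor Lcor. Klf10, a zinc-finger repressor induced by TGF-beta, was at 8028, 10007 and 7440 in newly transcribed and 334, 288 and 333 in pre-existing RNA (4.73 ± 0.21). These 15 transcripts reached 377 or more in every newly transcribed sample, whereas pre-existing values ranged from 16.3 for Rgmb to 391.9 for Ccnl1. They were chosen by size, mean and lack of overlap on these same 6 arrays. Their levels and kept calls thus follow in part from the choice.

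The 15 largest decreases, chosen in the same way, lay between -5.34 and -3.98 and kept their call without those arrays. Rabac1, which helps Rab GTPases onto membranes, was at 13.3, 25.9 and 31.3 in newly transcribed and 1079.7, 655 and 1017 in pre-existing RNA (-5.34 ± 0.38, adjusted p = 5.5e-05). Its total RNA ranged from 40.0 to 824, so total RNA gives no firm level for it. Tspo, a cholesterol-binding protein of the outer mitochondrial membrane, was at 61.6, 35.0 and 62.8 against 1245, 1666 and 1188 (-4.72 ± 0.30). Ergic3, a protein that cycles between endoplasmic reticulum and Golgi, differed by -4.33 ± 0.27, and Vps28, a subunit of the sorting complex ESCRT-I, by -4.25 ± 0.50. The serine proteases that start the classical complement pathway, C1s1 and C1ra, differed by -4.37 ± 0.29 and -4.12 ± 0.35. The detoxifying enzyme Mgst1 was at 10.0, 38.6 and 34.7 against 904, 713 and 714 (-5.02 ± 0.52), and at -4.40 without newly transcribed replicate 1. Emb, a cell adhesion glycoprotein, moved most with that array, from -3.98 ± 0.91 to -2.82 without it. Xdh, xanthine dehydrogenase, moved the other way, from -4.25 ± 0.67 to -5.04. The others were Hikeshi, a nuclear import carrier of heat shock proteins, Grcc10, Mpnd, the ciliary protein Tmem107, Immp1l, a mitochondrial protease subunit, and the respiratory chain subunit Ndufa6.

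Among 23 measured genes of the NF-kappaB circuit, 11 were called higher and 0 lower, with a median of 0.97. Over all genes 18.6% were called higher and 32.8% lower. NF-kappaB factors wait in the cytoplasm bound to inhibitor proteins, and several of these inhibitors are themselves NF-kappaB targets. The inhibitor Nfkbia was at 11806, 13203 and 12898 in newly transcribed and 1656, 2256 and 1855 in pre-existing RNA (2.73 ± 0.21, adjusted p = 7.1e-05). All 5 of its probe sets were called higher. The nuclear regulator Nfkbiz was at 3351, 7737 and 8204 against 563, 713 and 731 (3.17 ± 0.38), and Map3k14, the kinase of the alternative pathway, was at 308, 236 and 174 against 13.1, 15.5 and 14.7 (4.02 ± 0.26). Tnfaip3 had the largest difference of the list, and the DNA-binding subunits differed less. Relb was called at 1.98 ± 0.48 (1.39 without newly transcribed replicate 1) and Rela at 1.33 ± 0.29, and Traf6, a ubiquitin ligase of the pathway, at 1.58 ± 0.33. Nfkb2 (0.29 ± 0.21), the inhibitor Nfkbib (-0.90 ± 0.62), the kinase subunits Ikbkb (-0.47 ± 0.24) and Ikbkg (-0.26 ± 0.21), the A20-binding Tnip1 (0.06 ± 0.27) and Tnip2 (0.29 ± 0.36) and the deubiquitinase Cyld (0.11 ± 0.32) were not called. The TNF receptor Tnfrsf1a (0.44 ± 0.32), the adaptor Tank (-0.28 ± 0.35) and the kinase Map3k7 (-0.75 ± 0.34) were not called either. Some calls hung on single arrays. Nfkbie (1.07 ± 0.25), Bcl3 (1.67 ± 0.53), Rel (1.79 ± 0.65) and Traf2 (1.21 ± 0.35) were called with all 6 arrays and lost the call when some single arrays were left out. Birc2 (0.93 ± 0.32) and Birc3 (0.97 ± 0.37), ubiquitin ligases of the pathway, were not called, but became called without newly transcribed replicate 1 (1.22 and 1.38) and under quantile normalization (1.14 and 1.17). Nfkbib was called lower without newly transcribed replicate 1, at -1.67. The count of members called higher ranged from 7 to 12 over the fits that left out 1 array.

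The promoters of the reference genes are shown to set the letters of a rapidly and a slowly replaced transcript beside each other. Each is the 200 bases before the transcription start in RefSeq (GRCm38.p6), 5′ to 3′ on the strand of the gene. Capitals mark matches on either strand to the kappaB-type letters (GGG and CC with 5 bases of any kind between them), TATAAA, TGACGTCA, TGACGTAA or CCGGAAGT. The first is Tnfaip3 at chr10:19015411-19015610, minus strand, 1 of its 2 promoters in the table, and the next Nfkbia at chr12:55492648-55492847, minus strand. Fos lies at chr12:85473690-85473889, plus strand, and Ndufa6, a gene of the pre-existing fraction, at chr15:82354292-82354491, minus strand.
Tnfaip3: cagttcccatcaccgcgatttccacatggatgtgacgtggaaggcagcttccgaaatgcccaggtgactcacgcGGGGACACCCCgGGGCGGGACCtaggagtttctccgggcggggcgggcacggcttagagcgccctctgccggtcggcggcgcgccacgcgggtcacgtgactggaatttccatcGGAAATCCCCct
Nfkbia: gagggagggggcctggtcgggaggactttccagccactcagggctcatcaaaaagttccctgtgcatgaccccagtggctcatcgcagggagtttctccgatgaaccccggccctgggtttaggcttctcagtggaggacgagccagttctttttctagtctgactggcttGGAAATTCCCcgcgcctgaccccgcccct
Fos: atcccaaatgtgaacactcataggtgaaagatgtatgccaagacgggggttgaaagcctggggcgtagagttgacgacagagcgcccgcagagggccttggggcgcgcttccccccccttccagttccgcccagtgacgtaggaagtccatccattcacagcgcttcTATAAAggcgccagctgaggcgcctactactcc
Ndufa6: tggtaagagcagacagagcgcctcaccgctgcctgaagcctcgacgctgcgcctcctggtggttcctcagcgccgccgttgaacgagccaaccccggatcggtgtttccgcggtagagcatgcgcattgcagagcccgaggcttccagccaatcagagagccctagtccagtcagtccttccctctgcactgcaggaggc
Tnfaip3 held 6 matches to the kappaB-type letters in this window, counted on both strands, and Nfkbia 1. Fos held 1 TATAAA, and Ndufa6 none of the capitalised motifs. Such matches are common. The kappaB-type letters were found in 71.3% of 1664 promoters of genes called higher (300 bases, 250 before to 50 after the start), 65.1% of 2886 promoters of genes called lower and 50.8% of all 32851 promoters of the table. The called sets covered 1260 of 1550 genes higher and 2274 of 2736 genes lower. TATAAA was held by 7.33%, 6.83% and 13.6% of these promoters, TGACGTCA (the cAMP response element) by 3.61%, 2.91% and 1.79%, and its variant TGACGTAA by 1.02%, 0.762% and 0.499%. CCGGAAGT (ETS type) was held by 8.23%, 8.49% and 3.89%, and GGGCGG (Sp1 type, which overlaps the kappaB-type letters in places) by 68.8%, 63.6% and 35.7%. The share for promoters of all 8346 genes tested was 68.3% for the kappaB-type letters, 6.80% for TATAAA and 66.3% for GGGCGG, so both called sets lay closer to it than to the whole table. The median GC content was 63.2% for genes called higher, 60.0% for genes called lower and 61.7% for all genes tested. A match is a description of letters, and its part in the levels was not tested.

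The gp130 family held members on both sides. Cytokines such as Lif bind receptors that share gp130, which activate Jak kinases and Stat factors, and Socs proteins switch the pathway off. Of 23 measured genes 11 were called higher and 3 lower, with a median of 1.35, beside 18.6% higher and 32.8% lower over all genes. Among ligands, Clcf1 was at 1682, 1894 and 2622 against 325, 298 and 314 (2.70 ± 0.23), Il11 at 158, 152 and 202 against 49.1, 39.4 and 57.5 (1.82 ± 0.24), and Il6 at 189, 951 and 916 against 55.2, 72.2 and 95.1 (2.92 ± 0.64, and 3.69 without newly transcribed replicate 1). Ctf1, cardiotrophin 1, was the ligand called lower (-1.57 ± 0.35). The inhibitors Socs3 (3.20 ± 0.24), Socs5 (2.71 ± 0.27), Socs7 (2.43 ± 0.41) and Socs6 (1.89 ± 0.45) were called higher. Socs3 was at 3483, 2318 and 3167 in newly transcribed and 324, 355 and 285 in pre-existing RNA, with no overlap. Socs4 was at 1.35 ± 0.57 without a call, and was called without newly transcribed replicate 1, at 2.04. The shared receptor chain Il6st, gp130 itself, was at 2296, 1842 and 1953 against 3396, 3376 and 3552 (-0.77 ± 0.19) and was not called, nor were Osmr (0.54 ± 0.21) and Lifr (-1.10 ± 0.62). The ligand-binding chain Il6ra, in contrast, was at 761, 211 and 148 against 14.7, 22 and 21.9 (3.91 ± 0.59, and 3.20 without newly transcribed replicate 1). Jak1 was called lower (-1.46 ± 0.29), as was the Stat inhibitor Pias3 (-1.30 ± 0.23), while Jak2 (0.09 ± 0.24), Stat3 (0.11 ± 0.27), Stat5b (-0.63 ± 0.32) and the phosphatases Ptpn11 (-0.21 ± 0.19) and Ptpn2 (0.45 ± 0.37) were not called. The phosphatase Ptpn1 was called higher (1.52 ± 0.24). Pias1 (1.35 ± 0.44) lost its call without newly transcribed replicate 1 (0.83) and without any of the pre-existing arrays.

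Immediate-early transcription factors respond to growth factors before new protein is made. They were called higher for 33 of 34 measured genes, with a median of 3.15, beside 18.6% of all genes called higher. The exception was the AP-1 subunit Jund at 0.18. Bhlhe40, a helix-loop-helix repressor, was at 3233, 2829 and 2201 against 151, 103 and 142 (4.39 ± 0.25). Klf6, a zinc-finger factor, was at 2797, 4140 and 4407 against 153, 187 and 236 (4.29 ± 0.28). Zfp36, which binds AU-rich elements and speeds decay, was at 2821, 3185 and 3727 against 158, 142 and 221 (4.24 ± 0.25). The smallest called differences were those of the C/EBP factors Cebpb (1.16) and Cebpd (1.41). The list remained at 31 to 32 calls when 1 array was left out.

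All 22 measured genes of MAP kinase and receptor feedback were called higher, with a median of 2.97, beside 18.6% of all genes called higher. Dusp phosphatases remove the activating phosphates of MAP kinases. Dusp5 was at 10671, 7247 and 7300.4 against 437, 408 and 422 (4.29 ± 0.23), Dusp6 at 4895, 7908 and 8258 against 414, 322 and 439 (4.14 ± 0.28), and Dusp4 at 371, 369.5 and 406 against 17.4, 30.3 and 22.1 (4.07 ± 0.25). Trib1, a pseudokinase that directs C/EBP proteins to degradation, reached 4.36 ± 0.20, and Rgs16, which speeds the switching off of G proteins, 3.96 ± 0.36. These were the largest differences of the list, whose smallest was 1.06.

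TGF-beta and BMP feedback held 12 genes called higher and 1 lower of 13, with a median of 2.21 (all genes, 18.6% higher and 32.8% lower). Skil, a Smad corepressor, was at 2209, 2963 and 1957 against 119, 147 and 141 (4.11 ± 0.24), and the homeobox corepressor Tgif1 at 1709.8, 1966 and 1635 against 205, 119.7 and 252 (3.26 ± 0.31). The helix-loop-helix inhibitor Id1 reached 3.09 ± 0.27 and the Snail factor Snai1 2.79 ± 0.47. Ski, the close relative of Skil, was called the other way, at 232, 129.8 and 132 against 361, 382 and 368 (-1.23 ± 0.28).

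Chemokines and other secreted signals held 15 genes called higher and 3 lower of 21, with a median of 2.16 (all genes, 18.6% higher and 32.8% lower). Hbegf, a ligand of the EGF receptor, was at 12232, 10049.9 and 9614 against 534, 445 and 596 (4.34 ± 0.22). Inhba, the activin A subunit, reached 4.07 ± 0.28, the EGF family member Ereg 3.90 ± 0.30, endothelin Edn1 3.15 ± 0.22 and the chemokine Cxcl1 3.12 ± 0.41. The chemokine Cxcl12 was called lower at 52.6, 130.2 and 112 against 579, 392.2 and 525 (-2.43 ± 0.38). Tgfb1 (-1.42 ± 0.44) and Tgfb3 (-1.0 ± 0.18) were also called lower, and both lost the call in some fits without 1 array.

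**Figure D3:**
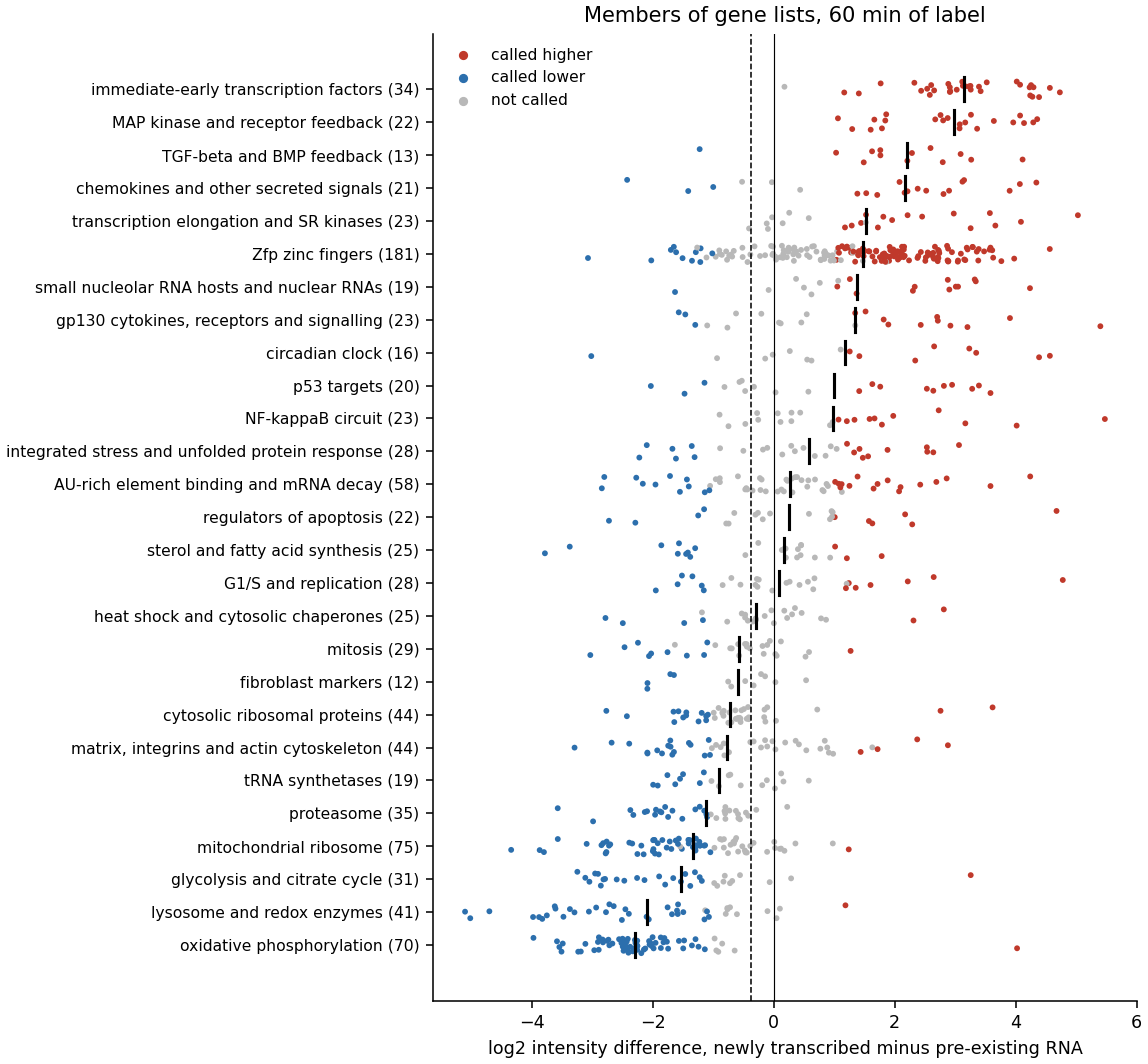
Log2 difference, newly transcribed minus pre-existing RNA, for each tested gene of 27 lists (number tested in brackets), ordered by the median (black bar). Red points were called higher, blue lower, grey not called, the solid line is 0 and the dashed line the median of all 8346 genes (-0.39). The feedback and early-response lists lie at the top right, oxidative phosphorylation and lysosome and redox enzymes at the bottom left.

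Regulators of transcription and splicing leaned to the new fraction, read against the 18.6% of all genes called higher and 32.8% called lower. Of 23 genes of transcription elongation and SR protein kinases 15 were called higher and 0 lower (median 1.52). Clk1, which phosphorylates SR splicing factors, was at 2877, 4779 and 4938 against 230.3, 232 and 258 (4.09 ± 0.27). Cyclins T of the elongation kinase P-TEFb, Ccnt1 and Ccnt2, reached 3.66 ± 0.36 and 3.57 ± 0.38, whereas the elongation factor subunits Supt5 (-0.10) and Supt6 (0.25) were not called. Zfp zinc-finger genes were called higher for 104 and lower for 11 of 181 (median 1.47). Zfp267 was at 491, 618 and 519 against 32.4, 32.6 and 38.2 (3.98 ± 0.20), and Zfp281, a repressor studied in stem cells, reached 3.61 ± 0.21. Zfp931 was called lower (-3.07 ± 0.29). The count of Zfp genes called lower ranged from 6 to 15 without 1 array. Among small nucleolar RNA hosts and nuclear RNAs 12 of 19 were called higher and 1 lower (median 1.37). Snhg7 was at 1794, 1329 and 1427 against 65.0, 92.0 and 85.0 (4.24 ± 0.24), and Neat1, the scaffold of paraspeckles, reached 3.32 ± 0.19. The probe sets of 2 members disagreed. Malat1, a speckle-associated RNA, was at 0.50 without a call on its brightest probe set, while others were called higher (4.54) and lower (-1.92). The imprinted Rian was called lower on its brightest probe set (-1.63 ± 0.26) and higher on another (4.71), and with the probe set of smallest p the list held 16 genes higher and 0 lower.

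Genes of mRNA decay were called in both directions. Of 58 genes of AU-rich element binding and mRNA decay 16 were called higher and 11 lower (median 0.26). Over all genes 18.6% were called higher and 32.8% lower (median -0.39), so this list held relatively more calls higher and fewer lower. The RNA-binding proteins Zfp36 and Zfp36l2 (2.86 ± 0.25) and the deadenylase partner Btg2 (3.58 ± 0.26) were among the higher. The exosome subunits Exosc5 (-2.85 ± 0.56) and Exosc4 (-2.17 ± 0.24), its helicase Skiv2l (-2.28 ± 0.38) and Lsm6 of the decapping complex (-1.96 ± 0.22) were among the lower. Exosc5 was at -3.46 without newly transcribed replicate 1.

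Stress and cell fate lists also held calls in both directions, and are read against the 18.6% of all genes called higher and 32.8% called lower. Of 20 p53 targets 10 were called higher and 3 lower (median 0.99). The polo-like kinases Plk2 (3.39 ± 0.26) and Plk3 (3.28 ± 0.23), the p53 ubiquitin ligase Mdm2 (2.95 ± 0.22) and the cell cycle inhibitor Cdkn1a (2.81 ± 0.31) were higher, and the cyclin Ccng1 was lower, at 281, 409.8 and 269 against 1225, 1327 and 1309.9 (-2.03 ± 0.23). The integrated stress and unfolded protein response held 10 higher and 6 lower of 28 (median 0.58), with the phosphatase subunit Ppp1r15a at 3.06 ± 0.27 and the mTOR inhibitor Ddit4 at 2.64 ± 0.22. Its enzymes Psph of serine synthesis (-2.22 ± 0.20) and Asns, asparagine synthetase (-1.36 ± 0.30), and the chaperone Hsp90b1 (-2.10 ± 0.27) were lower. Of 25 heat shock and cytosolic chaperone genes 2 were called higher, the co-chaperones Dnajb1 (2.81 ± 0.20) and Dnajb4 (2.31 ± 0.39), and 4 lower (median -0.29), among them Bag1 (-2.78 ± 0.21). The other 19 were not called. Regulators of apoptosis were called higher for 6 and lower for 4 of 22 (median 0.26, and 4 to 9 higher without 1 array). The death-promoting Bcl2l11 was at 400, 399 and 562 against 10.3, 22.6 and 23.1 (4.68 ± 0.37), the survival factor Mcl1 reached 2.17 ± 0.41, and the death-promoting Bad was at -2.73 ± 0.22. Of 16 clock genes 8 were called higher and 1 lower (median 1.18). The repressor Per1 (4.57 ± 0.41), Cry2 (3.35 ± 0.20) and Nfil3 (3.23 ± 0.26) opposed the output factor Dbp (-3.02 ± 0.30).

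Genes of oxidative phosphorylation were the most uniform of the pre-existing fraction. Of 70 measured genes 64 were called lower in newly transcribed RNA and 1 higher, with a median of -2.29. Over all genes 32.8% were called lower and 18.6% higher. Ndufa6, a complex I subunit, was at 51.0, 53.6 and 41.2 in newly transcribed and 771, 796 and 715 in pre-existing RNA (-3.98 ± 0.20, adjusted p = 2.6e-05). Ndufb10 of the same complex was at 334, 185 and 229.8 against 2689.6, 3167 and 2887 (-3.59 ± 0.27), and Atp5e of the ATP synthase at 244, 113 and 83.5 against 1368, 1774 and 1413 (-3.51 ± 0.40). The exception was Cox7c, at 63.4, 432 and 301 against 11.5, 12.1 and 13.7 (4.02 ± 0.68, and 4.86 without newly transcribed replicate 1). It had a single tested probe set, below 14 in pre-existing RNA. Calls lower ranged from 62 to 67 without 1 array.

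Lysosome and redox enzymes followed with 31 lower and 1 higher of 41 (median -2.10), beside 32.8% lower and 18.6% higher over all genes. Lamtor2, a scaffold of mTORC1 activation on lysosomes, was at 20.2, 19.8 and 18.3 against 672, 743 and 601 (-5.11 ± 0.19, adjusted p = 2.1e-05). The glutathione transferase Gstm1 differed by -4.70 ± 0.24 and the lysosomal protease Ctsa by -3.88 ± 0.40. Thioredoxin reductase Txnrd1 was the member called higher (1.18 ± 0.23), which it lost without newly transcribed replicate 1 (0.998). Glycolysis and citrate cycle enzymes were called lower for 21 and higher for 1 of 31 (median -1.54). Isocitrate dehydrogenase Idh1 was at 147, 221 and 187 against 1729.6, 1803 and 1670.5 (-3.25 ± 0.22), and hexokinase Hk2, the first step of glycolysis, was at 2751, 3246 and 2869.8 against 280.4, 322 and 325 (3.26 ± 0.19). No other enzyme of the list was called higher.

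Machinery of protein synthesis and breakdown is read here against the 32.8% of all genes called lower and 18.6% called higher. Mitochondrial ribosomal proteins were called lower for 47 and higher for 1 of 75 (median -1.34), from Mrpl14 (-4.34 ± 0.45) and Mrpl42 (-3.87 ± 0.21) to Mrpl44 (1.24 ± 0.24). Cytosolic ribosomal proteins were called lower for 13 and higher for 2 of 44 (median -0.72), a share lower that does not exceed that of all genes. Rpl14 was at 109.5, 138 and 139 against 873, 949 and 802 (-2.77 ± 0.21), and Rpl12 was at 1335, 2133 and 2065 against 157, 154 and 131 (3.62 ± 0.25). Rps25 was the other member called higher (2.76 ± 0.35). Ribosomal protein genes have many near-identical pseudogenes, so their probe sets are less certain. Of 35 proteasome subunits 20 were called lower and 0 higher (median -1.12), led by Psmb2 (-3.57 ± 0.36) and the immunoproteasome subunit Psmb10 (-2.99 ± 0.23). With the probe set of smallest p in place of the brightest, 5 proteasome, 7 cytosolic ribosomal and 5 mitochondrial ribosomal genes were called higher. Of 19 tRNA synthetases 8 were called lower and 0 higher (median -0.91), among them Lars (-2.0 ± 0.30).

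Structural and growth lists had medians between -0.78 and 0.17, beside -0.39 for all genes. Of 44 genes of matrix, integrins and actin cytoskeleton 17 were called lower and 4 higher (median -0.78, and 12 to 22 lower without 1 array). The proteoglycans Lum (-3.30 ± 0.41) and Dcn (-2.68 ± 0.26) were lower, and the matrix glycoproteins Thbs1 (2.37 ± 0.52) and Tnc (1.72 ± 0.30), the protease inhibitor Timp3 (1.44 ± 0.19) and the myosin light chain Myl6 (2.88 ± 0.24) were higher. Col1a1, the main collagen chain, was at 6804, 974 and 1025 against 7586, 8696 and 7984 (-2.09 ± 0.73). It was at -3.01 without newly transcribed replicate 1 and lost its call without any other of the 6 arrays. Sterol and fatty acid synthesis held 9 lower and 3 higher of 25 (median 0.17, and 6 to 9 lower without 1 array), with the sterol isomerase Ebp at -3.79 ± 0.41 and Hsd17b7 of sterol synthesis at 1.78 ± 0.23. Of 29 mitosis genes 9 were called lower and 1 higher (median -0.57), with the cyclin Ccnb2 at -3.04 ± 0.30 and the chromosomal passenger Incenp at 1.27 ± 0.24. Of 28 G1/S and replication genes 7 were called higher and 6 lower (median 0.09). Calls higher were thus not fewer than calls lower, unlike over all genes (18.6% higher and 32.8% lower). Thymidylate synthase Tyms (4.78 ± 0.23) and the licensing factor Cdt1 (2.64 ± 0.27) were higher, and the kinase Cdk4 was lower (-1.95 ± 0.44). No list's median changed sign when the arrays were quantile-normalized or centred on their medians. Without newly transcribed replicate 1 the medians of heat shock genes (0.083) and of sterol and fatty acid synthesis (-0.14) changed sign.

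The probe sets with the largest differences were often not those that stood for a gene. Of the 3422 probe sets called higher, 14.8% had no listed gene symbol and 45.3% were the brightest probe set of their gene. Of the 205 with a difference of 5 log2 units or more, 45.4% had no listed symbol and 5.37% were the brightest. In 91.7% of those 205 the pre-existing RNA lay below an intensity of 32. On the other side, 16 probe sets reached -5 or less, 0 of them without a symbol and 68.8% of them the brightest of their gene. In 100% of those 16 the newly transcribed RNA lay below an intensity of 32. The largest difference of any probe set belonged to Pabpc1, the poly(A)-binding protein, of which 1 probe set was at 2734, 4283 and 4993 against 10.3, 10.5 and 14.8 (8.37 ± 0.30).

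In 123 genes, 3.44% of the 3578 with several tested probe sets, 1 probe set was called higher and another lower. Rtn4, a reticulon of the endoplasmic reticulum, gave 6.06 on 1 probe set and -1.36 on another. Psma3, a proteasome subunit, gave 5.31 and -1.10, and Rps10, a ribosomal protein, 5.19 and -1.65. Fubp1, named above, gave 5.34 and -2.20. Which transcript forms these probe sets read was not tested.

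Blocking transcription with actinomycin D, on other arrays, was an independent readout of turnover. Total RNA after 2 h of the drug was compared with total RNA before it (3 arrays each, in a fit with the 1 h arrays), and 888 of 8151 genes were called lower (10.9%) and 24 higher (0.294%). With quantile normalization these were 760.0 and 89. Of the genes called higher in newly transcribed RNA that were tested there, 611 of 1299 (47.0%) fell, with a median of -0.93. Of those called lower, 11 of 2710 (0.406%) fell, with a median of 0.29, and of the genes not called 6.77% fell. The genes that fell were in turn mostly those of the new fraction, 611 of 885 (69.0%). Across 7893 genes the difference and the change correlated at Pearson r = -0.66 and Spearman rho = -0.71. Genes are not independent replicates, and this is a description. The median change went from 0.53 where the difference was below -4 to -1.75 where it was 3 to 4, and stood at -1.59 for the 42 genes at 4 and above.

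**Figure D4:**
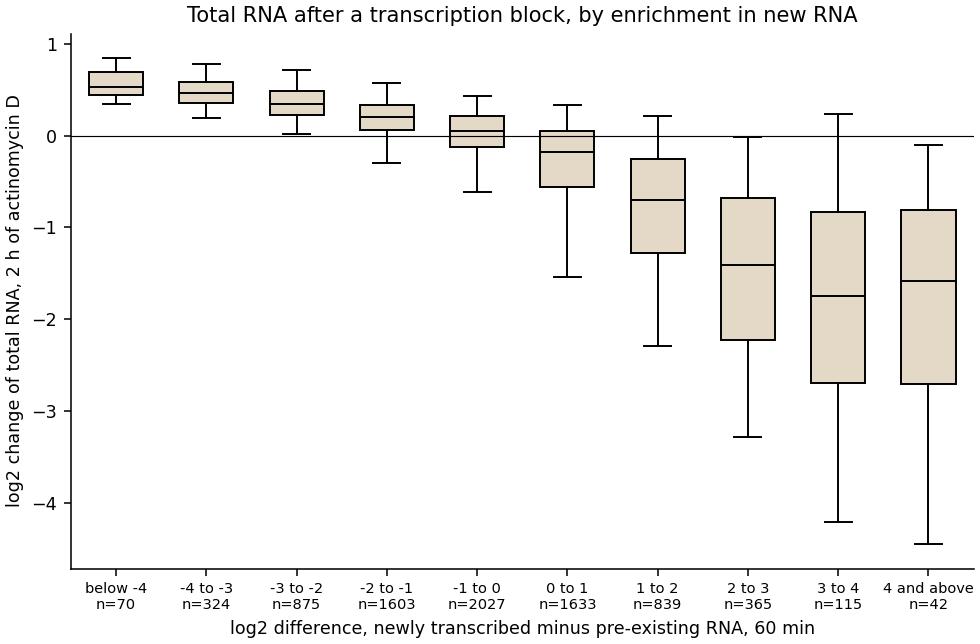
Log2 change of total RNA after 2 h of actinomycin D (vertical axis) for genes grouped by the log2 difference of newly transcribed minus pre-existing RNA (horizontal axis, number of genes under each group). Boxes give quartiles, lines medians, whiskers the 5th and 95th percentiles. Medians pass from 0.53 at the left to -1.75 for 3 to 4 and -1.59 at 4 and above.

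Single genes show the link and its gaps. Over 2 h Myc changed by -5.38 ± 0.19 (limma adjusted p = 1.1e-07), Dusp6 by -5.10 ± 0.30, Socs3 by -4.55 ± 0.26, Klf10 by -3.83 ± 0.26 and Nfkbia by -3.53 ± 0.15, all called. The leading gene Rgmb changed by -2.78 ± 0.29 and Ccnl1 by -1.98 ± 0.14, also called. Tnfaip3, Lif and Fos were below the filter on the mean over the 9 arrays of that fit and were not tested. Tnfaip3 and Lif were dim before the drug too, whereas Fos passed from 52.1 to 59.8 before it to 5.96 to 14.5 after 2 h. By list, the counts are read beside the 10.9% of all genes that fell. Of immediate-early genes 18 of 25 fell, of MAP kinase feedback 15 of 18, of TGF-beta feedback 8 of 11 and of Zfp genes 67 of 146. Secreted signals fell for 5 of 19, a smaller share than in those lists but larger than over all genes. In contrast, 0 of 69 genes of oxidative phosphorylation and 0 of 41 lysosome and redox enzymes fell. Vwa5a changed by 0.44 ± 0.11 and Ndufa6 by 0.44 ± 0.13, without a call.

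Of 132 genes with a difference of at least 3 whose mean log2 reached 7, 19 did not fall by 0.5 or more under actinomycin D, some of them with a change above 0. They included the secreted signals Inhba (0.24 ± 0.14), Ereg (0.30 ± 0.13) and Cxcl1 (-0.01 ± 0.14), the nuclear RNA Neat1 (-0.25 ± 0.14), Btg2 (0.56 ± 0.16), Rgs16 (0.38 ± 0.24) and Usp36 (-0.33 ± 0.13). The count and this choice of genes were made after their values were seen. Each of these 7 was called higher in newly transcribed RNA of the 2F experiment too, from 1.71 for Neat1 to 2.51 for Usp36. So were 234 of the 237 genes (98.7%) called higher by 3 or more and tested there, so this does not set the 7 apart. Why they differ from the others was not tested.

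Labelling for 30 min and the 2F experiment gave no call in the opposite direction. These comparisons set newly transcribed against total RNA, which holds new RNA too, so their sizes cannot be set directly beside those against pre-existing RNA. At 30 min, 1187 of 8226 genes were called higher (14.4%) and 2391 lower (29.1%). In each fraction the 30 min replicates 1/4/7, 2/5/8 and 3/6/9 correlated most closely within those sets, so these arrays may not be independent. With each set averaged, a fit added after the data were seen, 1148 genes were called higher and 2329 lower. In the fit of all arrays, 61.7% of the genes called higher against pre-existing RNA were higher at 30 min and 0 lower. Of those called lower against pre-existing RNA 74.9% were lower and 0 higher. In the 2F experiment 1574 of 8355 genes were called higher (18.8%) and 1883 lower (22.5%), and the shares were 83.7% higher with 0 lower and 66.5% lower with 0 higher. Pearson r across genes was 0.90 at 30 min (8089 genes, Spearman rho 0.89) and 0.94 in 2F (8216 genes, rho 0.94). Tnfaip3 differed by 3.61 at 30 min and 2.44 in 2F, Lif by 3.42 and 2.58, and Vwa5a by -2.43 and -2.67. Cox7c, the exception of oxidative phosphorylation, was higher in both (4.78 and 2.44), as was Hk2 (1.91 and 2.18). Relb and Rela were called in 2F (1.62 and 1.07) and not at 30 min (0.37 and 0.26), and the difference between those was not tested.

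Half-lives, the purpose named in the series title, were derived from the ratio of newly transcribed to pre-existing RNA. Across 9047 probe sets whose mean log2 reached 7, the ratio of pre-existing to total RNA fell on that of newly transcribed to total RNA with a slope of -0.0723, and the size of this slope scaled the fractions to a common sum. The line was loose (r = -0.22). It used total RNA replicate 2, which stood apart, and was not refitted without that array alone. The half-life is 60 min times ln 2 over ln(1 + scaled ratio), which assumes exponential decay at constant level. Over 5537 genes the median was 11.5 h (quartiles 5.91 h and 22.04 h), with 53 genes under 1 h, 291 under 2 h and 1234 over 24 h. The scale is weakly fixed, since the median was 7.81 h without newly transcribed replicate 1, 17.2 h without replicate 2, 15.23 h without replicate 3 and 6.45 h with a Theil-Sen slope. The order of genes does not depend on that common scale.

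The formula gave 28.6 min for Tnfaip3 (95% interval 22.6 to 37.5 from the spread of the ratio alone). Its pre-existing RNA lay below an intensity of 32, where the ratio is loosely held. Lif came to 29.7 min (25.2 to 35.6), Klf10 to 38.7 min (31.6 to 48.3) and Fos to 46.4 min (30.2 to 77.5). Total RNA of Tnfaip3, Lif and Fos was higher in the labelled cells than before actinomycin D in another experiment (levels below). The constant level that the formula assumes is thus not shown for them, and their values are not established half-lives. Myc was at 80.7 min (60.6 to 109.7) and Nfkbia at 107 min (81.2 to 143), while their loss over 2 h of actinomycin D corresponds to 22.3 min and 34.0 min. Klf10 was closer, at 31.3 min by that measure, and Ccnl1 stood the other way, at 34.3 min from the ratio and 60.7 min under the drug. Actb was at 343 min (251 to 470.2). Without newly transcribed replicate 1, with the scale refitted, Tnfaip3 came to 21.7 min, Lif to 23.5 min and Klf10 to 29.8 min. Nfkbia came to 74.2 min and Actb to 234 min in that fit. All of these lie below their intervals, which take the scale as fixed. Fos (31.5 min) and Myc (61.8 min) stayed within theirs. The shortest list medians were 1.42 h for immediate-early genes (27 genes), 1.55 h for MAP kinase feedback (17) and 2.17 h for TGF-beta feedback (12). Many genes of these lists were also higher in total RNA than before actinomycin D (counts below), so the same limit applies to these medians. The longest were 22.4 h for mitochondrial ribosomal proteins (69), 24.8 h for glycolysis and citrate cycle (29), 35.9 h for lysosome and redox enzymes (38) and 45.9 h for oxidative phosphorylation (68).

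Some early-response genes were at another level in total RNA of the labelled cells than in total RNA before actinomycin D, which comes from another experiment. Tnfaip3 was at 113 to 145 in total RNA at 60 min and at 7.81 to 11.1 before the drug, Lif at 215 to 289 and 6.34 to 13.0, and Fos at 639.6 to 723 and 52.1 to 59.8. Myc overlapped, at 254 to 563 and 482 to 677. By non-overlapping groups and a fold of 2 or more, 286 of 8346 genes (3.43%) were higher and 365 (4.37%) lower in total RNA at 60 min. Of the 34 immediate-early genes 17 were higher, 1 lower and 16 neither. Of 22 genes of MAP kinase feedback 8 and 0, of 13 of TGF-beta feedback 6 and 0, and of 28 of the integrated stress response 0 and 12. Fos was highest in newly transcribed RNA at 30 min (8169.6 to 13269.8, 9 arrays) and lay at 7317 to 9687 at 15 min and 2586 to 7411 at 60 min. Newly transcribed Tnfaip3 was at 28.8 to 51.7 at 15 min, 193 to 410.5 at 30 min and 757 to 1422 at 60 min. In the 2F experiment, at the same time and dose, it was at 349 to 559.8, which overlaps the range at 30 min. The experiments were separate and the 4sU doses differed, so these levels are a description chosen after the values were seen. How far a changing level moved the half-lives was not tested.

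**Figure D5:**
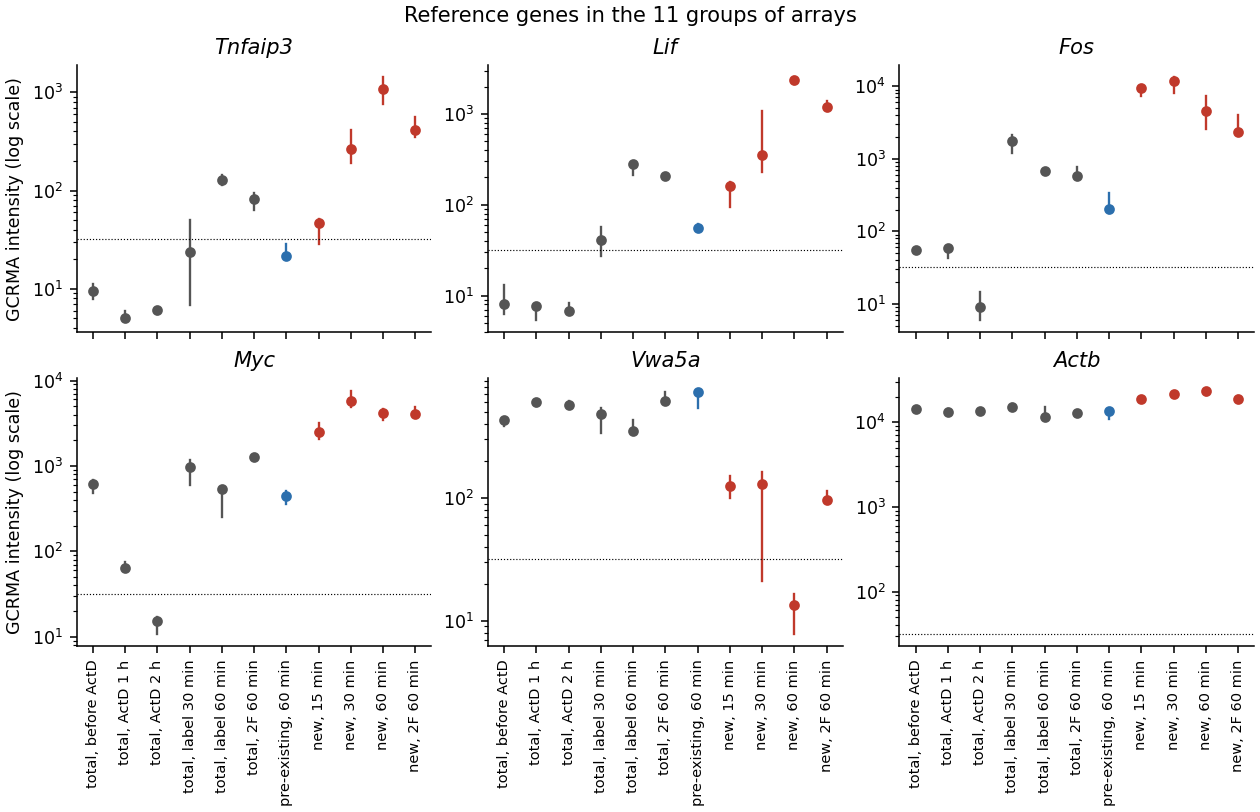
Intensity on a log scale of 6 reference genes in the 11 groups of arrays. Points are medians and lines the range over 3 arrays (9 at 30 min), grey for total, blue for pre-existing and red for newly transcribed RNA, and the dotted line is an intensity of 32. Tnfaip3 and Lif are at 13.0 or less in total RNA before and during actinomycin D (ActD) and at 63.7 or more in total RNA of both 60 min experiments, while Actb lies between 10759 and 23504 throughout.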

How the data were processed

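RNA of 45 arrays in 11 groups was read, and the comparison used 6. RNA was labelled with the Affymetrix one-cycle protocol, per the labels' protocols. The deposited values were intensities on a linear scale. The submitters' processing notes name GCRMA as the authors' method, and its version and settings are not given in the sources used here. GCRMA corrects background with a sequence model and can hold dim values near the low end, which widens ratios there. The number of arrays limits the precision.

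The log2 of each intensity was taken. Of 31451 probe sets, 61 control probe sets were left out of the tests. Of the other 31390, 25031 had 1 gene symbol in the platform annotation (13232 genes), 690 had several and 5669 were not listed. RefSeq identifiers matched 24934 and changed 0 symbols. Fits used limma 3.58.1 (lmFit, eBayes) in R 4.3.3 with the groups compared as the only factor and probe sets whose mean log2 reached 5, and the fit was tested on simulated data. Python 3.11.15 served for the rest.

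Genes named were the 15 largest called changes in each direction whose mean log2 reached 7, with 1 symbol and no overlap of groups, the reference genes Tnfaip3, Lif, Vwa5a, Fos, Myc and Actb, the measured members of the NF-kappaB and gp130 lists, and a choice from up to 5 members with the largest called changes of each other list and those called against its direction. Other list members are named as exceptions or smallest differences, chosen after their values were seen. The members and the 30 gene lists, written from general knowledge (20 genes are in more than 1), were chosen with earlier results of these data known.

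No label says whether replicate numbers of newly transcribed and pre-existing arrays pair samples, and they were not used as pairs. Deviations of same-numbered arrays correlated at -0.36 to 0.32. The arrays that stood apart weigh on these values, with 0.41 for newly transcribed replicate 1 against pre-existing replicate 2. The check therefore cannot decide the pairing. For actinomycin D the deviations of same-numbered arrays correlated at 0.213 to 0.546 in all 3 pairs. Replicates 2 and 3 also correlated across numbers, at 0.172 and 0.183. Only replicate 1 is thus set apart, and pairing of the others is not shown. The main fit did not pair these arrays. Alternatives covered normalization, filters, array weights, call rules, the replicate block and each array left out.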

Additional observations from a re-analysis of the deposited data

Results flagged for a closer look

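The Bacillus poly-A control probe sets, which read transcripts not made by the cells and entered no comparison, differed between the fractions. Their mean log2 over 12 probe sets was 10.8 to 11.6 on the newly transcribed arrays and 7.03 to 7.94 on the pre-existing arrays, a difference of 3.63 with no overlap. Total RNA of the same experiment lay at 7.57 to 9.29. Newly transcribed RNA lay at 12.9 to 13.1 at 15 min and 8.26 to 8.61 in the 2F experiment, and total RNA before actinomycin D at 5.72 to 6.05.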

How the results depend on the processing

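The 3422 probe sets called higher and 4631 lower became 1817 and 2472 with a mean log2 of 7 or more, where 9069 were tested, and 2042 and 2294 with limma's treat at a fold of 2. Without 1 array they ranged from 2918 to 3474 and from 3810.0 to 5146. Without newly transcribed replicate 1 and pre-existing replicate 2, chosen after the data were seen, they were 3770.0 and 5040.0. With pre-existing replicates 1 and 3 averaged, also chosen then, they were 3403 and 3832. Genes lost to actinomycin D (1419 probe sets) became 2349 with no filter, and the 3804 called higher at 30 min became 5715. Of 223 called genes named by the rule, 153 kept the call in every alternative in which they were tested, 70 lost it in some and 0 reversed.

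The median half-life of 11.5 h became 10.998 h with the 2F total RNA and 10.4 h with the principal axis. It was 6.45 h with the Theil-Sen slope, added after the data were seen. Without 1 newly transcribed or pre-existing array it ranged from 7.81 h to 17.2 h. On the strand of the gene only, promoters of genes called higher held TATAAA in 4.93%, TGACGTAA in 0.601%, the kappaB-type letters in 55.1%, CCGGAAGT in 4.63% and GGGCGG in 47.3%. Those of genes called lower held them in 3.92%, 0.450%, 48.0%, 4.61% and 41.3%, since fewer strands were searched.

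With the replicate block, 3396 probe sets were called higher and 4626 lower, 1422 fell under actinomycin D, 3887 and 3534 were called in 2F and 3809 and 4110.0 at 30 min. Deviations correlated at 0.035 to 0.136 in 2F and -0.15 to 0.45 at 30 min. Limits are the 3 arrays per group, values below 32 in the dimmer fraction for many large differences in both directions, and the scale of the half-lives.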
